A study of Homo sapiens with 18 samples.

Results

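Drug-efflux pumps of the ATP-binding cassette (ABC) family and the major vault protein were followed in MDA-MB-231 cells kept at low oxygen with or without a chemotherapeutic drug. The 9 genes were ABCB1, ABCC1, ABCC2, ABCC3, ABCC4, ABCC5, ABCC10, ABCG2 and MVP, of 19775 genes named on the array. They were chosen by symbol, and every probe set that the platform's gene table lists under 1 of these symbols alone was used, which gave 21 probe sets. A probe set is the group of short probes that measures 1 transcript on the array, and 1 further probe set, listed under ABCB1 together with ABCB4, was left out.

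MDA-MB-231 is an established line of triple-negative breast cancer cells. In serum-free medium, the cells received for 16 hours 10 µM epirubicin in hypoxia (H epi) or normoxia (N epi), 50 µM paclitaxel in hypoxia (H tax) or normoxia (N tax), or no drug in hypoxia (H) or normoxia (N), where hypoxia was 1% oxygen. RNA of whole cultures was measured on the HG-U133 Plus 2.0 array of Affymetrix, and 12 of 18 arrays were compared, 2 per condition. The titles and source names of the other 6 arrays give different drugs, so these were assigned to no condition. The p-values measure the spread between these arrays. Since the cultures were measured in bulk, fewer cells holding a transcript and less of it in each cell cannot be told apart.

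ABC pumps use the energy of ATP to move compounds across membranes. ABCB1 (P-glycoprotein), ABCC1 (MRP1) and ABCG2 (BCRP) are the pumps best known for lowering the amount of chemotherapeutic drugs inside tumor cells. Paclitaxel, which stabilizes microtubules, is carried by ABCB1 and ABCC10, and anthracyclines such as epirubicin, which intercalate into DNA and poison topoisomerase II, are carried by ABCB1 and ABCC1. The ABCC members export anionic drugs, glutathione and glucuronide conjugates or nucleotides. MVP is not a pump but the main protein of the vault, a large ribonucleoprotein particle, and was once described as a lung resistance protein.

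All values are log2 signals after GC-RMA, a normalization that corrects the background by the GC content of the probes. The study called a transcript present above a linear signal of 8.84, which is 3.14 on the log2 scale. A probe set was tested when both arrays of at least 1 condition exceeded it, as for 24151 of 54613 probe sets, and between 41.4% and 42.6% of all probe sets were present on each array. The 2 arrays of a condition correlated at 0.989 to 0.999. The identity of the cells was checked on marker genes. Of 8 MDA-MB-231 markers, 7 were present on all 12 arrays, and SPARC was present on none. Among 8 luminal or epithelial markers, ESR1 was present on 1 array and PGR, CDH1 and FOXA1 on none, while ERBB2, GATA3, KRT19 and EPCAM were present on all 12. Of 7 hepatocyte markers, ALB, FGB and APOB were present on no array, AFP on 2, and APOA1, TTR and SERPINA1 on all 12. APOA1 gave 1 identical log2 value, 3.34, on all 12 arrays, and TTR ran from 3.21 to 4.36. Both lay near the threshold, so their presence does not establish expression. KRT10 was the only one of 7 keratinocyte markers present on all 12 arrays, FLG was present on 7, and KRT1, LORICRIN, IVL, KRT5 and KRT14 were present on none.

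Of the 21 probe sets, 15 were present on all 12 arrays and were tested, and they represented 7 of the 9 genes. Neither ABCB1 nor ABCC2, which exports conjugates from liver cells into bile, was present on any array. The ABCB1 probe sets 243951_at and 209993_at stayed at or next to the lowest value of the table, with linear signals from 4.70 to 4.72 and 4.70. The ABCC2 probe set 206155_at gave 4.70 to 4.90. With both genes at this level in all 6 conditions, no change of either could be measured. The 3 other probe sets that were not tested belonged to genes with other, present probe sets. ABCC4 243928_s_at was present on no array, with a highest signal of 5.09. ABCC3 242553_at exceeded the threshold on 1 array, N tax replicate 1, at 13.3. ABCC5 226363_at exceeded it on 1 array as well, N replicate 2, at 9.51. Among the probe sets that were tested, ABCC3 230682_x_at came nearest to the threshold, with linear signals from 11.7 to 15.5, and it gave the same value on 8 of the 12 arrays (within 1e-06 on the log2 scale). ABCC3 209641_s_at shared 1 value on 5 of the 12. Small changes of these probe sets could therefore be hidden.

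**Figure D1:**
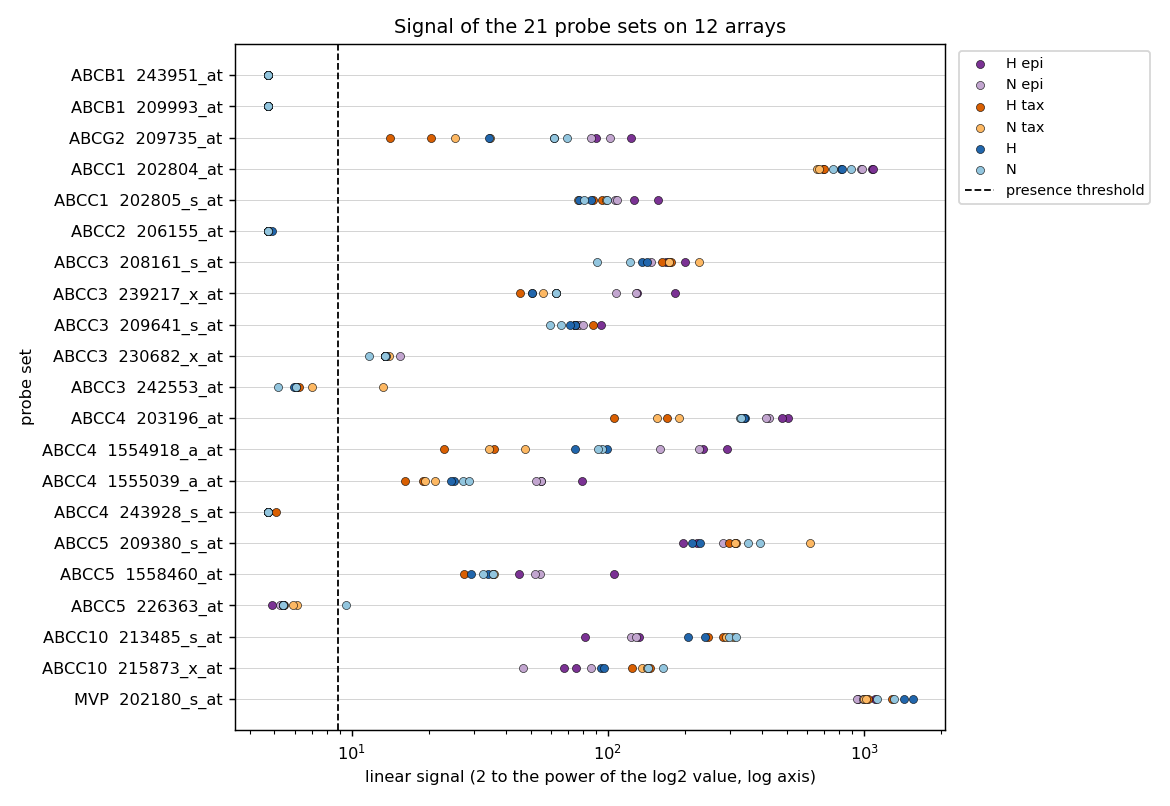
Linear signal (x axis, log scale) of the 21 probe sets (rows) on 12 arrays, 1 point per array, colored by condition. The dashed line is the presence threshold of 8.84; both ABCB1 probe sets and the ABCC2 probe set lie to its left on every array, and 15 probe sets lie to its right on every array.

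The stretches upstream of ABCG2, ABCC4 and ABCC10 are shown, which are some of the genes that changed with the drugs. RefSeq (GRCh38.p14) gave 15 promoter windows for 7 of the 9 genes, each from 250 bases before to 50 bases after a transcription start. ABCC1 and ABCC3 had none, and some windows of the same gene overlap. The part before the start is printed for the window with most matches to the core of the hypoxia response element, the site at which hypoxia-inducible factors bind DNA. The cores searched on both strands were ACGTG and GCGTG, and capitals mark them or their complements; CACGTG matches on both strands. The windows are chr4:88158860-88159109 (minus strand), chr13:95301452-95301701 (minus strand) and chr6:43427291-43427540 (plus strand).
ABCG2: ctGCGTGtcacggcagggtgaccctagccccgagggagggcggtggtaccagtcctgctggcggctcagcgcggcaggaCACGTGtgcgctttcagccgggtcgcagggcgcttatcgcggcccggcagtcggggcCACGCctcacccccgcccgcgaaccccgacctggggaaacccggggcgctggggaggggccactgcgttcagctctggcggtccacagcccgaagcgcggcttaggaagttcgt
ABCC4: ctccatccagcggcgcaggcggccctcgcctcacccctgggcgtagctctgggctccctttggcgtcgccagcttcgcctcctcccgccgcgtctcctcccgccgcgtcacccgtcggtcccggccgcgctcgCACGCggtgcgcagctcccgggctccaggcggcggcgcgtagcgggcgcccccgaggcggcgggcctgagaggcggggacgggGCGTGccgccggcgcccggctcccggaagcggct
ABCC10: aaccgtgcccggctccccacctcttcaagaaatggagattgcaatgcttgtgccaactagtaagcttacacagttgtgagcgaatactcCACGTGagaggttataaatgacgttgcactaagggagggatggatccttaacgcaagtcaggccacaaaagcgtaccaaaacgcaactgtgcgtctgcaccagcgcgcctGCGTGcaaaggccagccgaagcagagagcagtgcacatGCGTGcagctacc
In these windows ABCG2 held 3 marked stretches, starting 248, 171 and 114 bases before the start. ABCC4 held 2, at 117 and 34 bases, and ABCC10 held 3, at 161, 51 and 13 bases. The core occurred in 7 of the 15 windows, of 5 genes, and in 48.4% of all 35116 RefSeq windows. Counted over a whole window, the genes shown had the most matches to it among the genes with a window: 5 for ABCC10, 4 for ABCG2 and 3 for ABCC4. ABCC5, which also changed with a drug, had 1. MVP, which changed as well, had 0 in each of its windows. The genes shown therefore do not stand for all members. The antioxidant response element core TGACNNNGC occurred in 3 of the 15 windows (ABCG2, ABCC4 and ABCC10), against 13.3% of all windows, and the GC box GGGCGG in 4 of 15 against 45%. The ABCG2 match to the antioxidant core lies in a window that is not printed. Such matches describe the letters only.

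The first question was whether hypoxia changed these genes. No probe set of the 15 passed the test in H epi against N epi, H tax against N tax or H against N (limma, Benjamini-Hochberg over all probe sets tested, adjusted p under 0.05). At an unadjusted p under 0.05 there were 0, 1 and 2 of them. Across all tested probe sets, 0.381% were called higher and 1.13% lower in H epi against N epi. In H tax against N tax the shares were 1.06% and 0.273%, and in H against N they were 4.41% and 5.11%. The members' median change was 0.17 in H epi against N epi, -0.18 in H tax against N tax and -0.12 in H against N, beside medians of 0.00, -0.03 and -0.02 over all tested probe sets. Of 11 control genes of hypoxia on the same arrays, 0 rose in H epi against N epi, 9 in H tax against N tax and 10 in H against N. NDRG1, PDK1, BNIP3, ENO2, ALDOC, ANKRD37, EGLN3 and P4HA1 among them are in the paper's list of differences between H tax and N tax. That list was selected from these data, so the controls are no independent check of hypoxia in H tax against N tax.

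ABCC5, an exporter of cyclic nucleotides and nucleotide analogs, had the lowest hypoxia value among the members without drug. Its probe set 209380_s_at gave 7.74 and 7.83 in H cells, against 8.47 and 8.62 in N cells, without overlap of the arrays. The change was -0.76 (95% interval -1.37 to -0.15), with an adjusted p of 0.124. A fit without 1 array leaves its condition with a single array, which is then assumed to vary like the other conditions. Without N tax replicate 1 or N tax replicate 2, which bear on this comparison only through the common spread, the adjusted p was 0.0156. ABCC10 215873_x_at gave 6.55 and 6.59 in H cells, against 7.17 and 7.36 in N cells, a change of -0.69 with an adjusted p of 0.129. That probe set passed without N epi replicate 1 or N epi replicate 2 (adjusted p = 0.0155), and the lead ABCC10 probe set 213485_s_at (-0.47, adjusted p = 0.22) passed without H epi replicate 1 or H epi replicate 2 (0.048). ABCG2 gave 3.83 and 4.35 in H tax cells, against 4.67 and 5.11 in N tax cells, a change of -0.80 (95% interval -1.52 to -0.09) with an adjusted p of 0.332. None of these differences was called in the fit of the 12 arrays. With only the H and N arrays in the fit, ABCC5 209380_s_at (adjusted p = 0.0429) and ABCC10 215873_x_at (0.048) passed in H against N. With the 6 unassigned arrays added by title, ABCC5 209380_s_at passed in H against N (-0.83, adjusted p = 0.00449) and in H tax against N tax (-0.67, adjusted p = 0.0415), and ABCG2 in H tax against N tax (-0.75, adjusted p = 0.0496). In the fit of the 12 arrays the intervals of ABCC5 209380_s_at, ABCC10 215873_x_at and ABCG2 reached beyond -1 on the log2 scale.

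For the other lead probe sets, those with the highest mean of their gene, the intervals in H against N bound what could have been missed. ABCC1 202804_at ran from -0.25 to 0.23, ABCC4 203196_at from -0.41 to 0.52, MVP from -0.03 to 0.63 and ABCC3 208161_s_at from -0.03 to 0.84. These intervals do not bound changes of other probe sets or changes with hypoxia in drug-treated cells. The hypoxia effect in drug-treated cells was also set against that in control cells. No member passed this test for paclitaxel or for epirubicin, where 0.12% and 3.96% of all tested probe sets passed, and 1 member had an unadjusted p under 0.05 in each. For epirubicin it was ABCC10 215873_x_at (difference 0.86, adjusted p = 0.21), whose N epi arrays were 6.43 and 5.55. With the single N epi array at 5.55 left, and the spread taken from the other conditions, it passed (1.30, adjusted p = 0.00548). In that fit, without N epi replicate 1, the probe set also passed in H epi against N epi (0.61, adjusted p = 0.0409). ABCC5 1558460_at, whose H epi arrays were 5.49 and 6.73, passed both tests with the single H epi array at 6.73 left, without H epi replicate 1 (0.996 in H epi against N epi, adjusted p = 0.0252, and a difference of 1.11, adjusted p = 0.0436). Without N tax replicate 2, ABCC5 209380_s_at passed in H tax against N tax (-1.01, adjusted p = 0.0472).

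**Figure D2:**
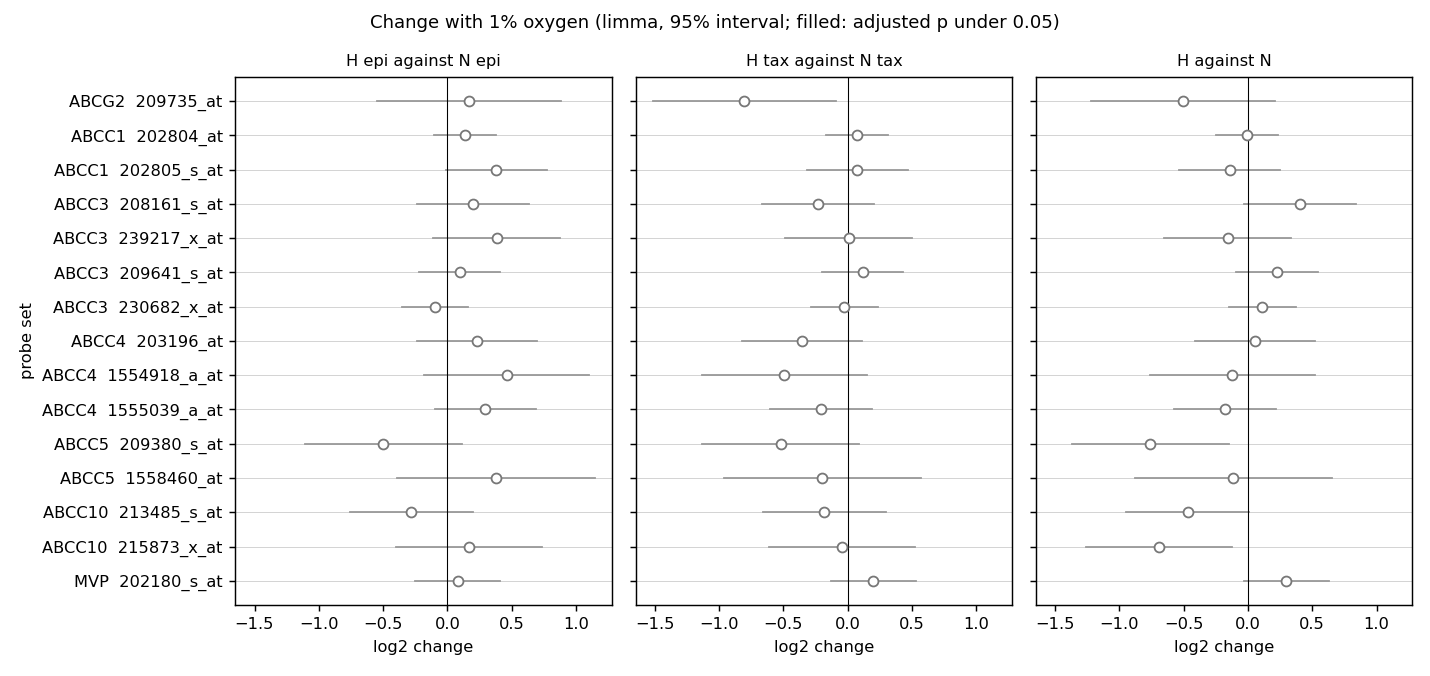
Log2 change with 1% oxygen (x axis) of the 15 tested probe sets (rows) in H epi against N epi, H tax against N tax and H against N, with 95% intervals from the limma fit. Open points did not pass the test, and all 45 points are open; the lowest, ABCG2 in H tax against N tax, is at -0.80.

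Paclitaxel lowered ABCG2 and ABCC4 in hypoxia and in normoxia, and raised 1 probe set of ABCC3 in normoxia. In H tax against H, 3 of 15 probe sets fell and 0 rose, where 17% of all tested probe sets fell and 13% rose. In N tax against N, 3 of 15 fell and 1 rose, where 13.8% of all fell and 9.49% rose. The members' median change was -0.01 in H tax against H and -0.15 in N tax against N, beside 0.00 and -0.01 over all tested probe sets. The share of members that fell was near the background in both comparisons.

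With epirubicin more members passed the test than with paclitaxel, as did more of all probe sets. In H epi against H, 8 of 15 rose and 2 fell, where 30.9% of all tested probe sets rose and 32.5% fell. In N epi against N, 4 of 15 rose and 2 fell, where 24.7% and 27.8% of all did so. Over both directions, the share of members that changed was near that of all tested probe sets in H epi against H and below it in N epi against N. The members' median change was 0.40 in H epi against H and 0.33 in N epi against N, beside 0.00 and 0.00 over all tested probe sets. These values depend on the scaling between arrays. Centring each array on its median raised the changes by 0.54 in H epi against H and by 0.41 in N epi against N. The calls were then 11 higher and 1 lower in H epi against H, where 53% of all tested probe sets were higher and 23.2% lower. In N epi against N they were 11 higher and 2 lower, where 45.2% of all were higher and 20% lower. With quantile normalization, which raised the changes by 0.31 and 0.24 (median over all tested probe sets), the calls in H epi against H were 11 higher and 2 lower, where 41.6% of all were higher and 27.7% lower. In N epi against N they were 10 higher and 2 lower, where 33.1% of all were higher and 23.7% lower. No member that was called under the deposited scale changed its direction under either scaling. Both scalings raised the changes with epirubicin, so they could not test whether a rise there would reverse. Of the 23 calls in the drug comparisons, 23 were kept when the 6 unassigned arrays were added by their title, and 0 when they were added by their source name.

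Marker genes and the hypoxia controls moved with the drugs as well. All 11 hypoxia controls fell in H epi against H (median change -4.01), and in N epi against N 4 rose and 3 fell. The luminal or epithelial keratin KRT19 fell by 3.53 in H epi against H and fell by 2.26 in N epi against N, and GATA3 fell by 2.36 and fell by 3.36 there. Of the 4 tested markers of this list, 1 rose and 2 fell in each of these comparisons. EPCAM went the other way and rose by 0.97 in N epi against N. The summed linear signal of the 8 luminal or epithelial markers was 1809 to 2439 in H epi cells, 2705 to 2719 in N epi cells, 15257 to 15864 in H tax cells, 8222 to 9412 in N tax cells, 16052 to 19559 in H cells and 9758 to 12428 in N cells. KRT19 had the highest mean of the 8 in every condition and weighs most in this sum. With paclitaxel, S100A4, a marker of the line, fell by 1.48 in H tax against H and fell by 1.41 in N tax against N, and the hepatocyte marker SERPINA1 fell by 1.62 and fell by 1.05. The markers of the line did not all fall. Of 7 tested, 2 rose and 3 fell in H tax against H, and 2 rose and 2 fell in N tax against N. The summed signal of the 7 hepatocyte markers was 132 to 184 in H tax cells and 135 to 189 in N tax cells, against 355 to 444 in H cells and 277 to 293 in N cells. SERPINA1 had the highest mean of the 7 in every condition and weighs most in that sum. The part of these changes in those of the members was not tested.

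**Figure D3:**
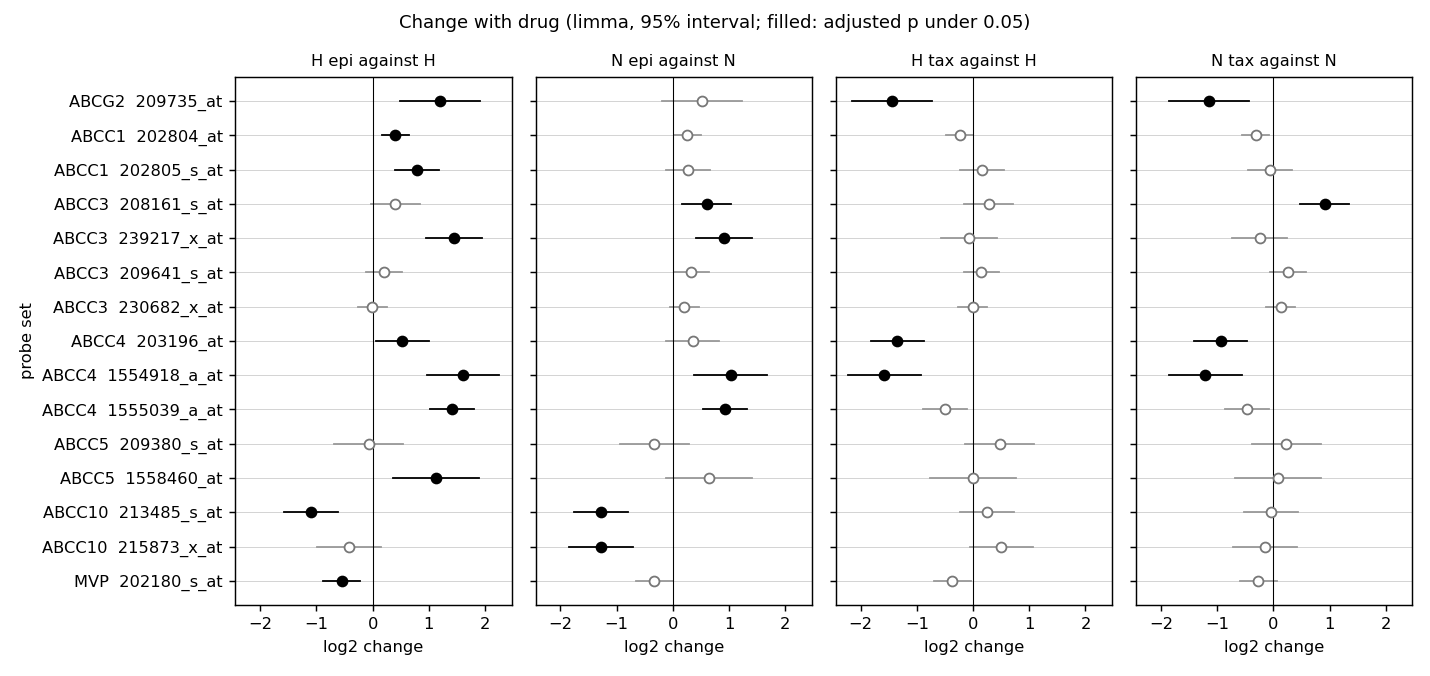
Log2 change with drug (x axis) of the 15 tested probe sets (rows) in H epi against H, N epi against N, H tax against H and N tax against N, with 95% intervals from the limma fit. Filled points passed the test at an adjusted p under 0.05: 10, 6, 3 and 4 of 15 in the order of the panels.

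ABCG2, which moves many anticancer drugs out of the cell and marks side-population cells, spanned 3.12 log2 units over the 12 arrays. Its probe set 209735_at gave 6.95 and 6.49 in H epi cells, 6.67 and 6.43 in N epi cells, 3.83 and 4.35 in H tax cells, 4.67 and 5.11 in N tax cells, 5.11 and 5.94 in H cells and 6.11 and 5.95 in N cells. The arrays of the paclitaxel-treated cells were the lowest, except that N tax replicate 2 and H replicate 1 were both at 5.11. The mean was highest in H epi cells, followed by N epi, then by N and H cells, and lowest in H tax cells below N tax cells, and the arrays overlapped between H epi and N epi and between H and N tax. In H tax against H it fell by 1.44 (standard error 0.31, 2.71-fold lower, adjusted p = 0.00934). In N tax against N it fell by 1.14 (standard error 0.31, 2.20-fold lower, adjusted p = 0.0315). In H epi against H it rose by 1.19 (standard error 0.31, 2.28-fold, adjusted p = 0.00934), and in N epi against N the change of 0.52 was not called (adjusted p = 0.195). These calls were not stable when 1 array was left out, which leaves a single array in its condition. In N tax against N the change was then -0.92 without N tax replicate 1 and -1.36 without N tax replicate 2. A lost call thus does not show that the array left out had produced it. The N tax call was lost without N tax replicate 1 (adjusted p = 0.172), N tax replicate 2 (0.0592), N replicate 1 (0.153) or N replicate 2 (0.1003), the H tax call without H tax replicate 1 (0.0619) or H replicate 2 (0.059), and the H epi call without H epi replicate 1 (0.0639) or H replicate 1 (0.0685).

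ABCC4, which exports cyclic nucleotides, prostaglandins and nucleotide analogs, fell with paclitaxel and rose with epirubicin. Its lead probe set 203196_at gave 8.98 and 8.90 in H epi cells, 8.74 and 8.69 in N epi cells, 7.41 and 6.73 in H tax cells, 7.57 and 7.28 in N tax cells, 8.42 and 8.41 in H cells and 8.35 and 8.37 in N cells. All 4 paclitaxel arrays lay below the others and all 4 epirubicin arrays above them. It fell by 1.35 in H tax against H (standard error 0.20, 2.54-fold lower, adjusted p = 0.00188) and by 0.94 in N tax against N (standard error 0.20, 1.92-fold lower, adjusted p = 0.0131). It rose by 0.53 in H epi against H (adjusted p = 0.0492), a call that was kept in 2 of the 12 fits with 1 array left out, those without H tax replicate 1 or H tax replicate 2. Over the 10 other fits its adjusted p ran from 0.056 to 0.151. In N epi against N the change was 0.35 (adjusted p = 0.181), which passed without H tax replicate 1 or H tax replicate 2 (adjusted p = 0.0418). The N tax call was lost without N tax replicate 2 (adjusted p = 0.0825), N replicate 1 (0.071) or N replicate 2 (0.0682).

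The second ABCC4 probe set, 1554918_a_at, had the widest span of the 15, 3.67 log2 units. It gave 7.88 and 8.19 in H epi cells, 7.82 and 7.32 in N epi cells, 4.52 and 5.17 in H tax cells, 5.58 and 5.10 in N tax cells, 6.22 and 6.63 in H cells and 6.57 and 6.52 in N cells. The order of drugs was that of the lead probe set. In H epi against H it rose by 1.61 (standard error 0.28, 3.05-fold, adjusted p = 0.00115), and in N epi against N by 1.03 (2.04-fold, adjusted p = 0.015). It fell by 1.58 in H tax against H (2.98-fold lower, adjusted p = 0.00386) and by 1.21 in N tax against N (2.31-fold lower, adjusted p = 0.0169). The N epi call was lost without N epi replicate 1 (adjusted p = 0.092), N replicate 1 (0.0581) or N replicate 2 (0.0698), and the N tax call without N tax replicate 2 (0.104), N replicate 1 (0.0925) or N replicate 2 (0.0742). ABCC4 1555039_a_at gave 6.30 and 5.77 in H epi cells, 5.77 and 5.71 in N epi cells, 4.64 and 4.61 in H cells and 4.77 and 4.84 in N cells. It rose by 1.41 in H epi against H (2.66-fold, adjusted p = 0.00018) and by 0.93 in N epi against N (1.91-fold, adjusted p = 0.00254), and both calls held in all 12 fits with 1 array left out. With paclitaxel its values were 4.25 and 4.02 in H tax cells and 4.41 and 4.27 in N tax cells, with changes of -0.50 (adjusted p = 0.0619) and -0.47 (adjusted p = 0.0866). Both of these passed without H epi replicate 1 or H epi replicate 2 (adjusted p = 0.0146 and 0.0236). The ABCC4 probe sets that were tested thus shared their directions.

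ABCC1, which exports glutathione conjugates and anthracyclines, changed with epirubicin in hypoxia. Its lead probe set 202804_at gave 10.07 and 10.08 in H epi cells, 9.93 and 9.94 in N epi cells, 9.43 and 9.44 in H tax cells, 9.35 and 9.38 in N tax cells, 9.67 and 9.67 in H cells and 9.56 and 9.79 in N cells. On this probe set the epirubicin arrays were the highest and the paclitaxel arrays the lowest, within 0.73 log2 units. In H epi against H it rose by 0.40 (standard error 0.10, 1.32-fold, adjusted p = 0.00899). The second probe set, 202805_s_at, gave 7.29 and 6.98 in H epi cells, against 6.26 and 6.43 in H cells, and rose by 0.79 (standard error 0.17, 1.73-fold, adjusted p = 0.0037). Both calls held in all 12 fits with 1 array left out. In N epi against N, 202804_at changed by 0.26 (adjusted p = 0.0679) and 202805_s_at by 0.27 (adjusted p = 0.224), and neither was called; the lead probe set passed without N replicate 2 (0.37, adjusted p = 0.0404). With paclitaxel the lead probe set changed by -0.24 in H tax against H (adjusted p = 0.132) and by -0.32 in N tax against N (adjusted p = 0.0622). The second probe set did not share this order. Its means were 6.51 in H tax and 6.44 in N tax cells, against 6.35 in H and 6.49 in N cells.

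The probe sets of ABCC3, which exports glucuronide conjugates and bile acids, did not all change alike. Probe set 239217_x_at gave 7.03 and 7.51 in H epi cells, 7.01 and 6.75 in N epi cells, 5.50 and 5.98 in H tax cells, 5.66 and 5.81 in N tax cells, 5.98 and 5.66 in H cells and 5.98 and 5.98 in N cells. The 4 epirubicin arrays were the highest. It rose by 1.45 in H epi against H (standard error 0.22, 2.73-fold, adjusted p = 0.00051) and by 0.91 in N epi against N (1.88-fold, adjusted p = 0.00832), and both calls held in all 12 fits with 1 array left out. The lead probe set 208161_s_at gave 7.40 and 7.64 in H epi cells, 7.21 and 7.44 in N epi cells, 7.46 and 7.34 in H tax cells, 7.83 and 7.43 in N tax cells, 7.08 and 7.15 in H cells and 6.50 and 6.93 in N cells. Here the N arrays were the lowest, and paclitaxel went with higher values. It rose by 0.91 in N tax against N (standard error 0.19, 1.88-fold, adjusted p = 0.0109) and by 0.61 in N epi against N (1.52-fold, adjusted p = 0.0265), and its change of 0.40 in H epi against H was not called (adjusted p = 0.0939). The N tax call was lost without N tax replicate 1 (adjusted p = 0.0729) or N replicate 1 (0.0815), and the N epi call without N epi replicate 2 (0.115) or N replicate 1 (0.175). The remaining probe sets, 209641_s_at and 230682_x_at, were called in none of the comparisons between 2 conditions, although 209641_s_at passed in N epi against N without H epi replicate 1 or H epi replicate 2 (0.33, adjusted p = 0.0384).

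ABCC5 was called through its second probe set. Probe set 1558460_at gave 5.49 and 6.73 in H epi cells, 5.76 and 5.70 in N epi cells, 5.15 and 4.78 in H tax cells, 5.16 and 5.17 in N tax cells, 4.87 and 5.08 in H cells and 5.15 and 5.02 in N cells. The H epi arrays differed by more than a log2 unit, but both lay above the H arrays. It rose by 1.13 in H epi against H (standard error 0.33, 2.19-fold, adjusted p = 0.0165), a call lost without H replicate 1 (adjusted p = 0.0847). In N epi against N the change of 0.64 was not called (adjusted p = 0.14), and it passed without H epi replicate 1 or H epi replicate 2 (adjusted p = 0.00871). The lead probe set 209380_s_at gave 7.80 and 7.62 in H epi cells, 8.29 and 8.13 in N epi cells, 8.30 and 8.21 in H tax cells and 9.26 and 8.29 in N tax cells. It was called in no drug comparison. Without N tax replicate 2 it passed in N tax against N (0.72, adjusted p = 0.0234), and without N tax replicate 1 or N tax replicate 2 in H tax against H (0.47, adjusted p = 0.0277).

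ABCC10, which carries taxanes and other lipophilic drugs, fell with epirubicin. Its lead probe set 213485_s_at gave 7.05 and 6.34 in H epi cells, 6.95 and 7.01 in N epi cells, 8.13 and 7.95 in H tax cells, 8.26 and 8.18 in N tax cells, 7.68 and 7.90 in H cells and 8.22 and 8.30 in N cells. All 4 epirubicin arrays lay below the other 8. It fell by 1.10 in H epi against H (standard error 0.21, 2.14-fold lower, adjusted p = 0.00189) and by 1.28 in N epi against N (2.44-fold lower, adjusted p = 0.00144). The second probe set, 215873_x_at, gave 6.08 and 6.23 in H epi cells, 6.43 and 5.55 in N epi cells, 7.19 and 6.96 in H tax cells and 7.09 and 7.15 in N tax cells. It fell by 1.28 in N epi against N (2.42-fold lower, adjusted p = 0.00318), and its change of -0.42 in H epi against H was not called (adjusted p = 0.172). The 3 calls held in all 12 fits with 1 array left out. Without N epi replicate 1 or N epi replicate 2, 215873_x_at also passed in H epi against H (-0.42, adjusted p = 0.0201) and in H tax against H (0.50, adjusted p = 0.0185). With paclitaxel the lead probe set changed by 0.25 in H tax against H (95% interval -0.23 to 0.73) and by -0.04 in N tax against N (95% interval -0.52 to 0.44).

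MVP was called in 1 comparison. Its probe set 202180_s_at gave 10.10 and 9.89 in H epi cells, 9.87 and 9.96 in N epi cells, 10.02 and 10.33 in H tax cells, 9.96 and 9.99 in N tax cells, 10.60 and 10.49 in H cells and 10.36 and 10.13 in N cells. The H arrays were the highest. In H epi against H it fell by 0.55 (standard error 0.14, 1.46-fold lower, adjusted p = 0.00966), a call lost without H epi replicate 2 (adjusted p = 0.0552) or H replicate 1 (0.0564) and when each array was centred on its median. In H tax against H the change of -0.37 (adjusted p = 0.0912) passed without H tax replicate 2 (-0.53, adjusted p = 0.0489).

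**Figure D4:**
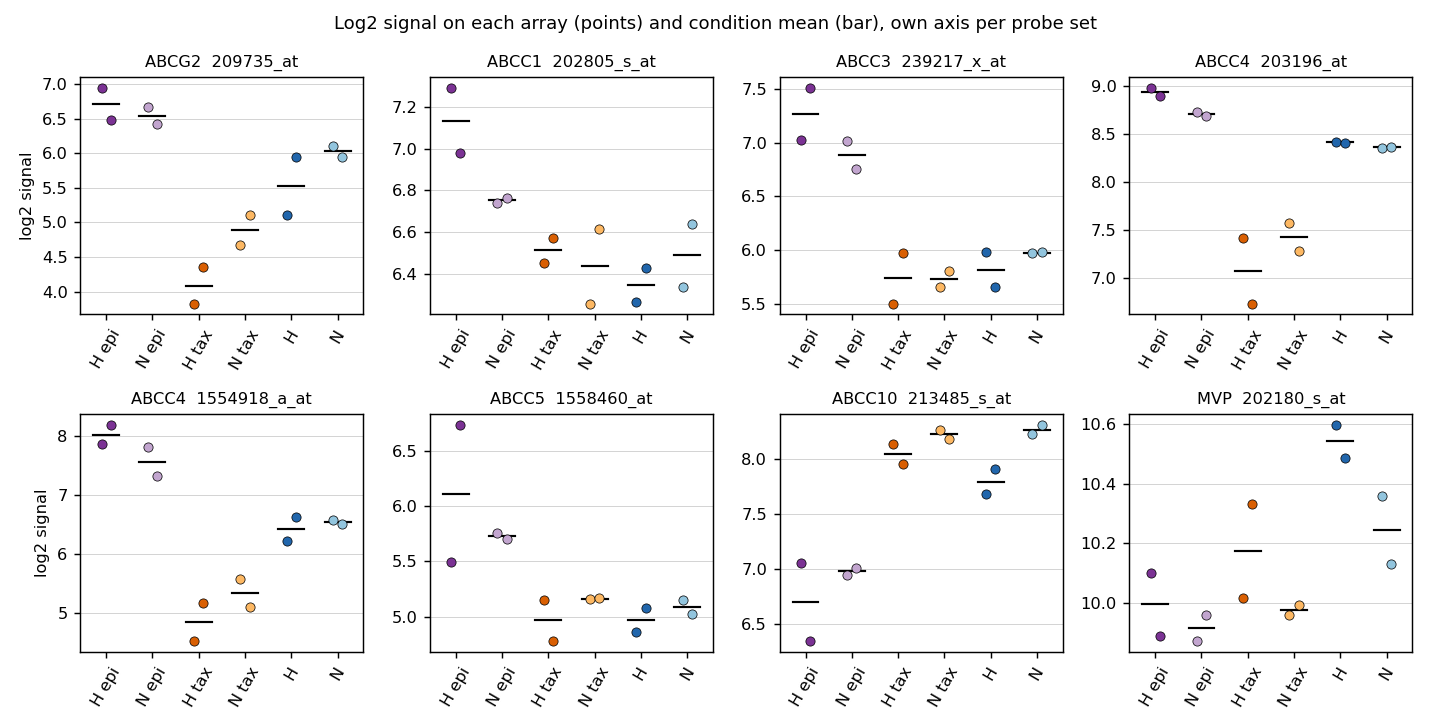
Log2 signal (y axis, own scale for each panel) of 8 probe sets on the 12 arrays, with conditions on the x axis, 1 point per array and a bar at the mean of the 2 arrays. Each gene is drawn by its tested probe set with the widest range, and ABCC4 by its lead probe set as well. ABCC1, ABCC3 and ABCC5 are therefore not drawn by their lead probe sets. ABCG2 and both plotted ABCC4 probe sets are lowest in H tax cells, with means of 4.09, 7.07 and 4.84, and highest in H epi cells, with means of 6.72, 8.94 and 8.03, while ABCC10 is lowest in H epi cells, with a mean of 6.70.

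As a description over the 12 arrays, which share their 6 conditions, ABCG2 correlated with ABCC4 1554918_a_at at r = 0.94 and with ABCC4 203196_at at 0.88. ABCC1 202804_at correlated with ABCC4 1554918_a_at and 1555039_a_at at 0.94 each, and ABCC3 239217_x_at with ABCC10 213485_s_at at -0.94. Among all other named genes, the probe sets most like ABCG2 were those of ELAVL1, ZWINT and HNRNPR (r = 0.98 each), and those most like ABCC4 203196_at were EID1, GALNT1 and HTATSF1 (r = 0.99 each). The lead probe set of ABCC1 was followed most closely by PTN, SEMA3C and GSPT1 (r = 0.98 each), that of ABCC10 by NOL8, FAN1 and CNEP1R1 (r = 0.985 to 0.990), that of MVP by ITGB4, HFE and RRAGA (r = 0.929 to 0.939), that of ABCC3 by PIK3C2A, CLGN and CLDN15 (r = 0.902 to 0.948) and that of ABCC5 by FAM199X, LRFN4 and KLHL18 (r = 0.904 to 0.906).

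The other ABC genes served as the family background. Of 36 on the array, 17 were tested, each through the probe set with the highest mean. Of these, 6 rose and 4 fell in H epi against H (30.9% and 32.5% of all tested probe sets), and in N epi against N 5 rose and 4 fell (24.7% and 27.8% of all). In H tax against H 4 rose and 7 fell (13% and 17% of all), and in N tax against N 3 rose and 4 fell (9.49% and 13.8% of all). With hypoxia, 0 changed in H epi against N epi, 1 fell in H tax against N tax, and 2 rose and 4 fell in H against N (4.41% and 5.11% of all). A difference between these genes and the drug-efflux members was not tested. ABCB6, a porphyrin transporter, rose by 1.31 in H against N (adjusted p = 0.00804) and fell by 2.51 in H epi against H (adjusted p = 3.09e-05). ABCA7, a lipid transporter, rose by 1.94 in H against N (adjusted p = 0.00741) and fell by 1.97 in H tax against H. ABCF2, a cytosolic ABC protein that is no transporter, fell by 1.37 in H against N and rose by 2.07 in H epi against H. In H epi against H, mitochondrial ABCB8 and ABCB10 and the peptide transporter TAP2 rose by 1.62, 1.47 and 1.42, and ABCF3 fell by 1.79. The peroxisomal transporter ABCD3 fell by 1.65 in H tax against H and fell by 1.54 in N tax against N.

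The pumps of the ABCC group work with glutathione, so the genes of its synthesis and conjugation were counted. Of 16 tested, 7 rose and 3 fell in H epi against H (30.9% and 32.5% of all tested probe sets), and 8 rose and 2 fell in N epi against N (24.7% and 27.8% of all). In H tax against H 1 rose and 6 fell (13% and 17% of all), and in N tax against N 1 rose and 4 fell (9.49% and 13.8% of all). None passed with hypoxia in any of the 3 comparisons. GCLC, the catalytic subunit of the enzyme that makes the glutathione precursor, fell by 4.56 in H epi against H (adjusted p = 0.000537), and its modifier subunit GCLM fell by 1.02 there and rose by 1.38 in H tax against H. GSTM1, a conjugating transferase, rose by 1.12 in H epi against H, and MGST2 fell by 1.09 in N tax against N.

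Of 13 tested regulators of efflux pump genes, 2 rose and 7 fell in H epi against H, where 30.9% and 32.5% of all tested probe sets did so, and 2 rose and 8 fell in N epi against N, where 24.7% and 27.8% of all did so. In each of H tax against H and N tax against N 1 rose and 1 fell, beside 13% and 17%, and 9.49% and 13.8%, of all. With hypoxia 1 fell in each of the 3 comparisons. The transcription factors FOXO3, JUN and SP1 fell by 7.08, 6.39 and 3.90 in H epi against H, and KEAP1, which restrains the antioxidant factor NRF2, fell by 3.89. Of 4 tested carriers of drug uptake and other resistance, SLCO1B3, an uptake carrier of organic anions and paclitaxel, rose by 2.23 in N epi against N, by 1.11 in H epi against H and by 1.46 in H against N. The copper exporter ATP7A fell by 1.99 in H epi against H, the copper importer SLC31A1 rose by 1.26 in N tax against N, and PARP4, a vault component beside MVP, fell by 0.81 in H epi against H.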

How the data were processed

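Total RNA of MDA-MB-231 cells was measured on the HG-U133 Plus 2.0 array of Affymetrix. The deposited values are log2 signals that the authors normalized with GC-RMA, from 2.23 to 16.6. Their methods name AffyProbeMiner chip definitions, but the table uses the manufacturer's own probe set names. No further normalization was applied, and 62 control probe sets were set aside. Gene symbols came from the annotation of the platform, which gave 1 symbol for 41091 probe sets, several for 1801 and none for 11721. The number of arrays limits the precision.

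A single limma model (version 3.58.1, R 4.3.3, with data.table in version 1.17.8) was fitted to the 12 assigned arrays, with 6 residual and 2.28 prior degrees of freedom. It gave 7 two-sided comparisons and 2 differences between hypoxia effects. P-values were adjusted by Benjamini-Hochberg over 24151 probe sets, with a threshold of 0.05. Simulated data with known changes were used to check the model. In a simulated N epi against N it recovered most of the larger changes and missed most of the smaller ones. Far fewer probe sets were changed there than passed in the real comparison, so the power of the real one was not tested.

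The members and gene lists were chosen with earlier results of these data known. Named were all member genes through all their probe sets, the 8 other ABC genes and up to 4 genes of each other list with the largest change among those past the test, and, for each tested lead probe set, the 3 probe sets of other genes with the highest Pearson correlation. Cell type markers and hypoxia controls are given by counts, with single markers as checks of the cells. As alternatives, the 6 unassigned arrays were placed by their title or by their source name, single arrays were left out, and the replicate number was used as a block. Further ones were no or a stricter presence filter, quantile normalization, median centring, a trended and robust variance, and fits of each comparison's own conditions.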

Additional observations from a re-analysis of the deposited data

How the results depend on the processing

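Of the 23 calls of member probe sets in the 7 comparisons, all 23 kept their direction and their call with the other 6 arrays added by title, with the replicate block, with a presence threshold 2 times higher, with quantile normalization and with a trended and robust variance. With median centring 22 were kept, with no presence filter 16, with only the conditions compared in the fit 16, and with 1 array left out between 16 and 23, the lowest without N replicate 1. None reversed. With the 6 arrays added by source name 0 of 23 were kept, and the counts were 0 in all 4 drug comparisons. Added by title, the counts were 1 in H against N, 2 in H tax against N tax, 7 in N tax against N, 12 in N epi against N and 5 in H tax against H. The count in N epi against N was 12 with quantile normalization and 13 with median centring, that in N tax against N was 2 with no presence filter, and that in H against N was 2 with only the conditions compared. ABCC3 230682_x_at in H epi against H, which was not called, changed its sign and passed with quantile normalization (0.42, adjusted p = 0.0265) and with median centring (0.53, adjusted p = 0.02). With the replicate block the counts were 0 in each of the 3 hypoxia comparisons, 4 in N tax against N, 6 in N epi against N, 4 in H tax against H and 10 in H epi against H. No label says that a replicate number marks a shared experiment, and the values did not establish a pairing: deviations from the condition means correlated between -0.18 and 0.30 over 15 pairs of conditions, with 3 over 0.1. With 1 array left out, the counts ranged from 0 to 1 in each of the 3 hypoxia comparisons, from 0 to 5 in N tax against N, from 4 to 8 in N epi against N, from 2 to 4 in H tax against H and from 6 to 10 in H epi against H, and from 0 to 0 and 0 to 1 in the paclitaxel and epirubicin differences of hypoxia effects. The count in N tax against N was 0 without N replicate 1, 1 without N replicate 2 and 2 without N tax replicate 1 or N tax replicate 2, and that in H epi against H was 6 without H replicate 1. The cause of these differences was not tested. The number of present member probe sets was 15 with quantile normalization and 14 with the threshold 2 times higher.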

Other observations

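The 6 arrays in no condition were read for the members as well. For these arrays the title and the source name name the same oxygen level and different drugs. ABCB1 and ABCC2 were present on none of them. For the 15 tested probe sets, the value lay nearer to the mean of the 2 arrays of the title's condition for 12 on the array titled H epi, 11 on N epi, 12 on H tax, 11 on N tax, 13 on H and 13 on N. ABCG2 209735_at gave 6.74 on the array titled H epi, 6.63 on N epi, 3.996 on H tax, 4.64 on N tax, 5.81 on H and 6.34 on N. ABCC4 203196_at gave 9.05 on the array titled H epi, 8.72 on N epi, 7.29 on H tax, 7.54 on N tax, 8.23 on H and 8.35 on N. ABCC10 213485_s_at gave 7.36 on the array titled H epi, 7.25 on N epi, 8.17 on H tax, 8.86 on N tax, 7.85 on H and 8.32 on N. By title, the 2 lowest of the 6 values of ABCG2 and ABCC4 lay on the paclitaxel arrays, and the 2 lowest of ABCC10 on the epirubicin arrays. No condition was assigned from these values.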
